A study of Mus musculus with 4 samples.

Results

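Among the luminal cells of cultured mouse mammary organoids, a group of cells was rich in transcripts of Cd14 and poor in those of the milk protein gene Lalba. These cells were chosen by their transcript levels in CPM (the UMIs of a gene per 1000000 gene UMIs of the same cell, where a UMI stands for 1 captured transcript). A member had at least 300 CPM of Cd14, under 200 CPM of Lalba, 1000 to 6000 detected genes and under 5% of its UMIs on mitochondrial genes. It also had under 300 CPM of the basal keratin gene Krt14, under 300 CPM of the hormone-receptor-positive (HR+) marker Areg, under 50 CPM of Tmigd1 and Sez6 together, and under 100 CPM of the mitotic genes Cenpf, Ccnb2, Cdc20 and Birc5 together. Of the 33268 cells in the deposited libraries, 1082 met these limits. They came from 10384 luminal cells, meaning the cells that met every limit except those on Cd14 and Lalba. The comparison class was 3523 luminal cells under the same limits with less than 50 CPM of Cd14, called Cd14-low here.

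The organoids were grown from mammary glands of mice, of 9 to 11 months in the study's account of its organoid experiments, that were wild type or carried 1 truncated copy of Brca2 in the germline (Brca2mut/WT). They were left untreated or exposed to hydroxyurea (HU), which stalls DNA replication, at 1 mM for 24 h in the study's protocol. Each of the 4 combinations of genotype and treatment was captured as 1 droplet library, and all were thawed from frozen organoids and cultured again before capture. The labels give 2 replicates per library, whereas the study's account of its single-cell data gives more mice per condition. The study took organoids of passages 0 and 4 for single-cell sequencing, and the HU-treated ones of passage 4 had met HU repeatedly, but how the passages fall over the 4 libraries and their 4 antibody tags is not given in the sources used here. Wild-type organoids gave 468 Cd14-high cells untreated and 259 after HU, and Brca2mut/WT organoids 221 untreated and 134 after HU. Lists of 4 values below follow this order. Their median depth was 22012, 24622, 22057 and 24971.5 UMIs, close to the 23280, 23173, 22868.5 and 25806 UMIs of the Cd14-low cells. The median share of mitochondrial UMIs was lower in Cd14-high than in Cd14-low cells of every library, 2.81%, 3.07%, 2.44% and 3.03% against 3.27%, 3.34%, 2.94% and 3.21%. More of them also carried a single antibody tag, 92.7%, 92.7%, 91.4% and 85.8% against 87.7%, 88.4%, 81.3% and 82.6%. Single-tag cells alone gave 1477 genes higher and 1142 lower in the test described below, of which 1396 and 1061 were also called with all cells, and the part of the mitochondrial share was not tested. Brca2 itself was read at 4.47, 3.99, 2.72 and 3.39 CPM in the Cd14-high cells, on 48, 26, 14 and 11 UMIs, with overlapping 95% intervals. A count of transcript ends does not tell a truncated allele from an intact one, so it does not check the genotype labels. Of 33139 distinct cell barcodes, 129 (0.389%) were found in more than 1 library, and 9 Cd14-high cells had such a barcode.

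CD14 is a surface protein that binds bacterial lipopolysaccharide (LPS), receives it from the carrier protein LBP and hands it to the receptor TLR4 with its partner MD-2 (gene Ly96). TLR4 signals through MYD88 and the IRAK kinases to the transcription factor NF-kB, which drives chemokine, cytokine and acute phase genes together with its own inhibitors. Although best known from monocytes, Cd14 is also a marker of the luminal lineage without hormone receptors (HR-), which holds the alveolar progenitors that make milk proteins such as alpha-lactalbumin (Lalba).

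The label of these cells was checked against markers. Cd14 was what chose them, and its level is therefore a description. The median Cd14-high cell had 516, 521, 492 and 479 CPM of Cd14, which rested on 12, 13, 12 and 12 UMIs, and only 5, 4, 8 and 7 cells passed on a single UMI. Single cells reached up to 3267, 2633, 5327 and 2621 CPM. Basal cells (Krt14 of at least 1000 CPM) had 20.2, 14.6, 28.3 and 19.9 CPM of Cd14 and HR+ cells (Areg of at least 1000 CPM) 59.7, 35.3, 43.1 and 14.7 CPM. Lalba was capped by the rule in both classes, so its level is a description as well. Among the Cd14-high cells 66.9%, 63.3%, 81.0% and 65.7% had no UMI of Lalba, against 66.7%, 67.5%, 71.7% and 65.5% of Cd14-low cells. The HR- luminal markers Kit, Elf5, Aldh1a3, Itga2, Ehf and Mfge8 were all present and summed to 5826, 4359, 5322 and 5248 CPM, against 5425, 4880.5, 4918 and 4909 CPM in Cd14-low cells. Mfge8 was the most abundant of them by UMIs. In the test described below Elf5 and Ehf rose, Kit and Itga2 fell, and Aldh1a3 and Mfge8 were not called. Of all genes in that test 11.8% rose and 9.32% fell. Itga2, which fell by 0.40 on the log2 scale and lost its call without any 1 of the libraries, was higher by 0.55 once cells with basal transcripts were left out.

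Most markers of blood cells were at or near 0, S100a8 excepted, although Cd14 is widely used as a monocyte marker. Of 13 monocyte and macrophage genes, 10 had no UMI in any Cd14-high cell, namely Ptprc, Adgre1, Itgam, Lyz2, Tyrobp, C1qa, C1qb, C1qc, Laptm5 and Mrc1. The whole list summed to 2.14, 3.07, 2.91 and 2.78 CPM, against 3.04, 3.76, 3.06 and 2.76 CPM in Cd14-low cells, and most of it was Cd68, a lysosomal protein that many cell types make. Neutrophil markers summed to 21.3, 24.9, 14.2 and 13.3 CPM, against 15.2, 16.1, 11.2 and 30.4 CPM in Cd14-low cells, nearly all on S100a8 in the Cd14-high cells, with S100a9, Csf3r and Retnlg at 0 UMIs. Lymphocyte markers summed to at most 0.461 CPM, with Cd3e, Cd3d, Cd79a and Nkg7 at 0 UMIs. Endothelial markers summed to at most 1.36 CPM, with Cdh5 and Kdr at 0 UMIs. Fibroblast markers summed to at most 6.99 CPM, with Col1a2, Col3a1 and Lum at 0 UMIs. Luminal keratins were abundant, with Krt18 at 2224, 2377, 2591 and 2262 CPM.

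Traces of basal transcripts were lower in the Cd14-high cells than in the comparison class. The 11 basal markers without Krt14 summed to 169.6, 106, 120.3 and 181 CPM in Cd14-high cells and to 245, 271, 275 and 391 CPM in Cd14-low cells, and Acta2, the smooth muscle actin of contractile basal cells, was the most abundant. Of all genes tested with edgeR 9.32% fell and 11.8% rose. Of the 11 basal markers 5 fell in edgeR's test (Cnn1, Pdpn, Mylk, Trp63 and Vim) and 0 rose. At an unadjusted p under 0.05 it was 7 lower and 0 higher, and DESeq2 called 5 lower and 0 higher. Cnn1, which encodes the muscle protein calponin, was at 0.466, 0.154, 0.388 and 0 CPM in the Cd14-high cells and at 1.61, 4.15, 3.52 and 7.01 CPM in the Cd14-low cells. In sums over cells, free RNA in the droplets and a few mixed cells cannot be told apart from expression. Every cell with at least 100 CPM of Krt5, Krt17, Acta2, Myh11, Cnn1 and Trp63 together was then left out of both classes. This gave 1531 genes higher and 1274 lower, of which 1301 and 961 were also called with all cells. The direction of Trp63 turned to 0.089, but Trp63 is itself part of this filter. Elf5 and Ehf lost their calls without the cells with basal transcripts (log2 fold changes of 0.13 and 0.089), as did Pdpn and Mylk.

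In untreated wild-type organoids 14.3% of the luminal cells were Cd14-high and Lalba-low (95% Clopper-Pearson interval 13.1 to 15.5). After HU the wild-type value was 8.93% (interval 7.91 to 10.02). Brca2mut/WT organoids had 9.70% untreated (interval 8.52 to 10.99) and 6.95% after HU (interval 5.86 to 8.18). The wild-type control library lay above the other 3 with separate intervals, and both HU libraries lay below the control of their own genotype. The intervals hold counting error alone, each condition had 1 library, and the difference between conditions was not tested. Within a library the share also moved between the cells that carried different antibody tags. In the Brca2mut/WT control it was 13.8% in the pool of tag 3 (855 luminal cells) and 3.35% in that of tag 4 (328 cells). The wild-type control had 16.2% with tag 3 (1288 cells) and 6.19% with tag 4 (194 cells). In wild-type HU the order was another, with 14.6% for tag 4 (171 cells) and 7.91% for tag 1 (860 cells), although their intervals overlapped. In Brca2mut/WT HU the larger pools had 5.88% (tag 1, 834 cells) and 7.88% (tag 3, 749 cells), with overlapping intervals. What a tag stands for was not given in the sources used here.

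**Figure D1:**
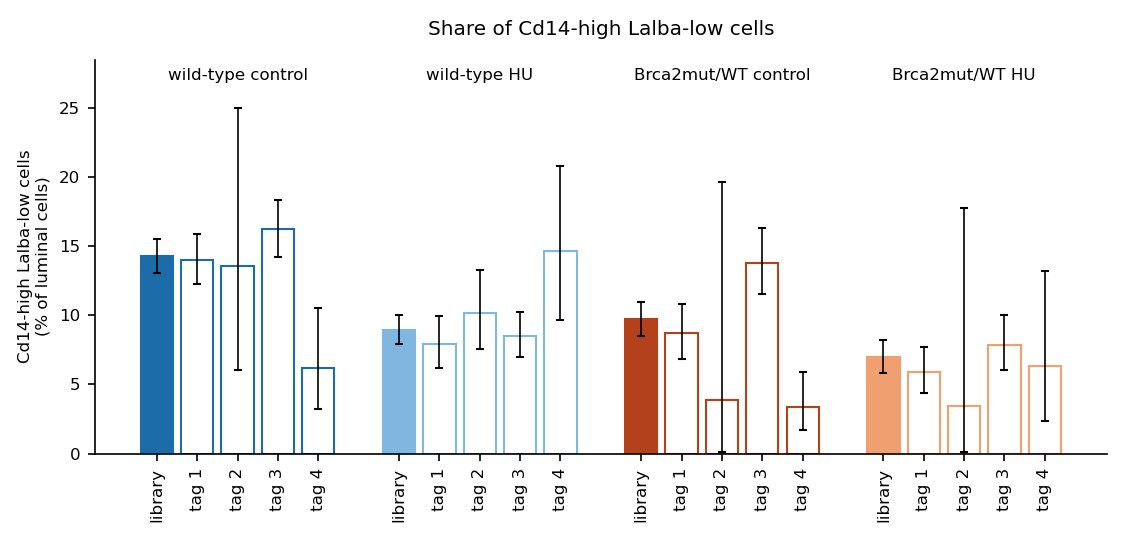
Share of luminal cells that were Cd14-high and Lalba-low, in percent, for each library (filled bars) and for the cells of each single antibody tag within it (open bars), with exact 95% intervals for counting error. The filled bar of the wild-type control reaches 14.3% and that of Brca2mut/WT HU 6.95%, and the open bars within a library range from 3.35% to 13.8% in the Brca2mut/WT control.

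To ask what else set these cells apart from Cd14-low luminal cells, UMIs were summed over each class in each library and the pairs of sums were compared with edgeR's quasi-likelihood test, with the library as a block and p-values adjusted over all genes (Benjamini-Hochberg). A call comes from the joint fit over 4 libraries, which also differ in genotype and treatment, and does not require the same direction in each. The 10 genes of the rule were left out. Of 12705 genes tested, 1505 (11.8%) were higher and 1184 (9.32%) lower in Cd14-high cells at an adjusted p under 0.05. DESeq2 called 742 and 559, cells thinned to 5000 UMIs gave 537 and 446, the fit without the library as a block 698 and 521, and the fit without the wild-type control library 999 and 837. Most of the changes were small, since 88 of the higher and 171 of the lower genes changed by at least 2-fold. Of all calls 56.0% were higher with TMM scaling, and 34.2% were higher when total counts set the scale, which shifted the median gene by -0.06 on the log2 scale. In sums over cells, more cells of a kind and more transcript per cell cannot be told apart.

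Apart from Cd14, the label of these cells names Wfdc3, Sfrp2 and Fcgbp, which were listed with these data known and are given as a description. Wfdc3 (ENSMUSG00000076434, chromosome 2 of GRCm38, 164731180 to 164745931, minus strand) belongs to the family of small secreted proteins with a whey acidic protein domain. It had 98.5, 116, 85.8 and 109.8 CPM in Cd14-high cells and 28.6, 33.3, 23.5 and 22.2 CPM in Cd14-low cells, a log2 fold change of 1.98 ± 0.08 (SE, 4 libraries). The classes did not overlap, and the higher level was seen in 10 of 10 tag pools with at least 20 cells of each class. A UMI of Wfdc3 was found in 50.6%, 52.5%, 46.6% and 51.5% of Cd14-high cells, in 24.7%, 24.1%, 20.9% and 23.4% of Cd14-low cells and in 10.8%, 8.42%, 9.26% and 7.61% of basal cells, where the basal cells had median depths of 24490.5, 21056, 20320.5 and 24572 UMIs. Sfrp2, a secreted Wnt antagonist, was low throughout, with 4.28, 6.14, 3.69 and 7.71 CPM against 2.12, 2.58, 1.64 and 2.36 CPM. Fcgbp, a mucus-associated secreted protein, had 778, 340.3, 700.4 and 385 CPM against 609, 245, 521 and 224 CPM, so the class difference was smaller than the distance between control and HU libraries. With the tag pool as the block its log2 fold change was 0.39 and the adjusted p of edgeR's test rose to 0.0586.

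The receptor side of the LPS pathway moved in part. Of 16 measured genes of LPS and Toll-like receptor signalling, 7 rose and 0 fell, against 11.8% and 9.32% of all genes tested, with a median log2 fold change of 0.19, against 0.0024 over all genes. The same shares and median are the background for the lists that follow, up to the comparison with Lalba-high cells. Of the genes that did not rise, 0 fell at an unadjusted p under 0.05 in edgeR, and DESeq2 called 5 higher and 0 lower. Lbp (ENSMUSG00000016024, chromosome 2 of GRCm38, 158306493 to 158332852), which encodes the protein that delivers LPS to CD14, had 265, 204, 241 and 183 CPM in Cd14-high cells. In Cd14-low cells it had 122, 99.6, 109 and 110.5 CPM, below every Cd14-high value, and the log2 fold change was 1.08 ± 0.06 with an adjusted p of 1.1e-07. The signalling receptor Tlr4 was scarce, with 3.91, 3.84, 3.30 and 4.01 CPM against 1.66, 2.31, 2.61 and 1.72 CPM (log2 fold change 0.94 ± 0.21, adjusted p 0.0027). Without the wild-type control library the call on Tlr4 was lost. Tlr2, a receptor for bacterial lipoproteins, rose from 2.03, 3.76, 1.93 and 2.76 CPM to 3.82, 5.68, 3.49 and 6.17 CPM. The adaptors Myd88 and Tirap and the kinases Irak2 and Irak3, of which Irak3 acts as a brake on the pathway, rose by 0.42 to 0.54 on the log2 scale, although Tirap lost its call without the wild-type control or either Brca2mut/WT library. Ly96, the partner of TLR4, was at 14.2, 21.0, 10.7 and 15.7 CPM against 17.1, 15.9, 15.0 and 14.9 CPM and was higher in 2 of 4 libraries only.

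Of 18 measured genes of the NF-kB system 13 were higher and 1 lower, against 11.8% and 9.32% of all genes, with a median log2 fold change of 0.42 (11 and 1 with DESeq2). The inhibitor Nfkbia, which holds NF-kB in the cytoplasm and is itself an NF-kB target, had 139, 183, 154 and 139.7 CPM against 98.8, 115, 109 and 107 CPM (log2 fold change 0.58 ± 0.05, adjusted p 5.1e-09). Nfkb2, a subunit of the non-canonical arm, had 13.0, 13.1, 14.6 and 10.5 CPM against 8.71, 7.99, 9.75 and 8.21 CPM. Both genes were higher in every library, with no overlap between the classes. Tnfaip2, Bcl3 and Zc3h12a, of which Zc3h12a encodes an RNase that degrades cytokine transcripts, rose by 0.80, 0.68 and 0.66. Birc3, an inhibitor of apoptosis, rose by 0.82 ± 0.16 in the joint fit (adjusted p 0.00049), although it was lower in Brca2mut/WT HU, with 3.70 against 3.96 CPM. Traf1, an adaptor of TNF receptors, went the other way, with 39.3, 30.3, 36.1 and 43.5 CPM against 64.0, 50.8, 60.05 and 55.9 CPM (log2 fold change -0.59 ± 0.07, adjusted p 8.7e-07).

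Of 15 measured chemokines and cytokines 9 rose and 1 fell, against 11.8% and 9.32% of all genes, with a median log2 fold change of 0.98 (6 and 0 with DESeq2), while Il1a, Il1b and Il6 had no UMI in any Cd14-high cell. Cxcl1 (ENSMUSG00000029380, chromosome 5 of GRCm38, 90891241 to 90893115), a neutrophil attractant, had 96.0, 149, 138 and 28.1 CPM against 43.1, 30.3, 34.9 and 9.94 CPM. It was higher in each library, but Brca2mut/WT HU lay below the Cd14-low cells of the other libraries, and the adjusted p of 0.029 was lost without wild-type HU, the Brca2mut/WT control or Brca2mut/WT HU. Cxcl5, a chemokine of the same receptor, had 22.5, 22.9, 11.4 and 8.33 CPM against 2.40, 4.76, 5.44 and 2.36 CPM (log2 fold change 2.26 ± 0.41, adjusted p 0.039). Its call was lost without either HU library, and it was higher in 8 of 10 tag pools. In Brca2mut/WT HU the pools of tags 1 and 3 had 1.59 and 5.94 CPM in Cd14-high cells, both below the library value. Lif, a cytokine that acts through STAT3, had 6.24, 15.4, 6.40 and 9.87 CPM against 3.04, 5.42, 3.12 and 3.16 CPM (log2 fold change 1.38 ± 0.15, adjusted p 4.4e-07). Tnf, the founding member of the tumour necrosis factor family, had 6.33, 3.69, 5.43 and 1.23 CPM against 2.03, 1.05, 2.32 and 0.517 CPM. Ccl28, which draws antibody-secreting cells to mucosal surfaces, rose by 1.23 ± 0.22, and Tslp, at under 1 CPM in Cd14-high cells, was the gene that fell.

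Antimicrobial and acute phase genes rose in most cases. Of 16 measured members 12 rose and 0 fell, against 11.8% and 9.32% of all genes, with a median log2 fold change of 1.02. None of the others fell at an unadjusted p under 0.05 in edgeR, and DESeq2 called 13 higher and 0 lower. The list summed to 48216, 46476, 48089 and 42931 CPM against 37026, 35307, 36645 and 32007 CPM. Lcn2, which withholds iron-binding siderophores from bacteria, made up most of this sum, with 41133, 38566, 41769 and 37133 CPM against 33542, 32197, 33730.0 and 29021 CPM. Its log2 fold change was small, 0.37 ± 0.02, and its adjusted p was 2.7e-10. Ltf (ENSMUSG00000032496, chromosome 9 of GRCm38, 111019271 to 111042767), the iron-binding milk protein lactoferrin, had 102, 257, 98.8 and 73.4 CPM against 31.6, 47.5, 27.4 and 18.6 CPM (log2 fold change 2.08 ± 0.16, adjusted p 0.0024). The highest Cd14-low library lay below the lowest Cd14-high library. C3, the central complement component, had 30.4, 32.3, 38.8 and 28.1 CPM against 13.9, 10.9, 17.8 and 14.2 CPM (log2 fold change 1.28 ± 0.09, adjusted p 6.9e-10). Wfdc18, a small secreted protein with a whey acidic protein domain, had 4021, 4718, 3954 and 3552 CPM against 2001, 1817, 1719.9 and 1709.7 CPM.

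The largest fold change in this list was that of Hp (ENSMUSG00000031722, chromosome 8 of GRCm38, 109575128 to 109579172), the haemoglobin-binding protein haptoglobin. Hp had 62.2, 45.2, 40.0 and 98.4 CPM against 20.4, 5.77, 7.43 and 13.9 CPM, a log2 fold change of 2.41 ± 0.32 with an adjusted p of 0.022. In the tag pools its level ranged from 4.16 to 234 CPM in Cd14-high cells and was the higher one in 9 of 10 pools, and leaving out the Brca2mut/WT HU, Brca2mut/WT control or wild-type HU library ended the call. So did leaving out cells with basal transcripts (log2 fold change 2.28, adjusted p 0.103) or with DNA replication transcripts (1.78, adjusted p 0.152). Hp was higher still in HR+ cells, at 345, 111, 235 and 341 CPM. Saa1, an acute phase apolipoprotein, had 173, 282, 158 and 211 CPM against 69.6, 72.9, 39.8 and 46.7 CPM (log2 fold change 1.90 ± 0.19, adjusted p 0.011), and its reads may be shared with the near-identical Saa2. Pigr, which carries antibodies across the epithelium into milk, had 45.4, 23.8, 13.4 and 14.2 CPM against 21.7, 7.73, 11.9 and 8.62 CPM. It rose within each library, by 1.05 ± 0.23 on the log2 scale (adjusted p 0.039), but the classes overlapped between libraries and the call was lost without the wild-type control or Brca2mut/WT HU. Steap4, a metalloreductase induced in inflammation, had 49.1, 42.2, 43.1 and 32.7 CPM against 26.96, 19.8, 24.04 and 17.2 CPM, with no overlap between the classes.

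**Figure D2:**
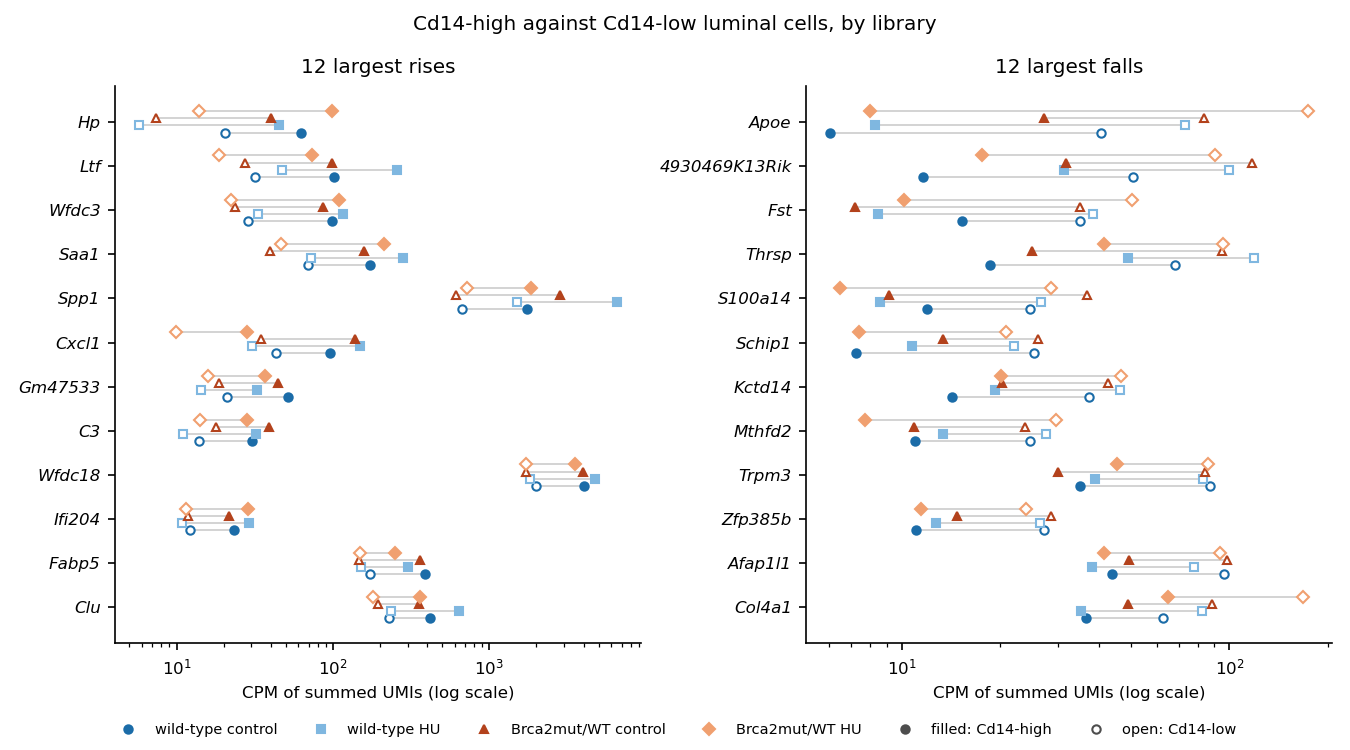
Levels in CPM (log axis) of the 12 genes with the largest rise (left) and the 12 with the largest fall (right) among called genes with at least 20 CPM in the higher class and the same direction in all 4 libraries, for Cd14-high (filled) and Cd14-low cells (open), 1 symbol and colour per library. Wfdc3, at 85.8 to 116 CPM, is nearly level between libraries, whereas Spp1 and Cxcl1 spread widely, and Apoe falls to 6.05 CPM in the wild-type control.

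Promoters of the risen members were read for an NF-kB motif, spelled GGGANTTTC and searched on both strands in the 250 bases before and 50 bases after each start site in RefSeq (GRCm38.p6). Of the 41 genes that rose in the LPS, NF-kB, chemokine and antimicrobial lists, 31 were found in the promoter table by symbol, and 3 of these held the motif (Nfkbia, Nfkb2 and Cxcl1), against 349 of 27025 genes (1.29%) in the whole table. The 5 matches that lie before a start site, counting at most 1 per strand and promoter, are shown because they belong to genes whose levels are given above, with the motif in capitals and each stretch on the strand of its gene.
Nfkbia, chr12:55492732-55492780, minus strand: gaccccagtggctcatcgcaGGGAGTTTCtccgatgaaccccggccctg
Nfkbia, chr12:55492648-55492695, minus strand: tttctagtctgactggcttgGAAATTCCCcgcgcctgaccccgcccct
Nfkb2, chr19:46305493-46305541, plus strand: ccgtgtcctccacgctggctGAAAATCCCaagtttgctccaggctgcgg
Nfkb2, chr19:46305685-46305733, plus strand: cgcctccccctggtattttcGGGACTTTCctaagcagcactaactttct
Cxcl1, chr5:90891154-90891202, plus strand: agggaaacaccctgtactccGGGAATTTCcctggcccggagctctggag
The motif starts 71 bases before the start site in Cxcl1 and 113 and 28 bases before it in Nfkbia, and 182 and 225 bases before 2 different start sites in Nfkb2. In the first Nfkb2 stretch and the second Nfkbia stretch the motif reads on the opposite strand. A second motif, TTCNNNGAA, as bound by STAT factors, was found in 5 of the 31 promoters (Myd88, Nfkb2, Sod2, Pigr and Steap4) and in 9.55% of all genes in the table. The NF-kB list was made up of feedback and target genes of NF-kB, so the share with its motif partly follows from the choice of genes. Whether it exceeds that of other lists was not tested. A match of letters is a description only, and these data hold no measurement of binding.

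Other large rises belonged to none of the immune lists. Spp1, the secreted phosphoprotein osteopontin, had 1747, 6546, 2819 and 1835 CPM against 671, 1499.7, 608 and 722 CPM (log2 fold change 1.83 ± 0.24, adjusted p 0.021). It was higher in each library, yet its call was lost without any 1 of the 4 libraries. Clu, the extracellular chaperone clusterin, had 420.2, 637, 353 and 359 CPM against 228, 236, 195 and 179.8 CPM (log2 fold change 1.11 ± 0.12, adjusted p 0.0085, lost without Brca2mut/WT HU). Fabp5, a carrier of fatty acids, had 387, 303, 362 and 250.1 CPM against 172, 151, 146 and 149 CPM. Ifi204, a DNA sensor of the interferon-inducible p200 family, had 23.5, 29.0, 21.5 and 28.7 CPM against 12.2, 10.8, 11.9 and 11.5 CPM. Ifi204 rose by 1.20 ± 0.10 (adjusted p 1.1e-08), and the unnamed transcript Gm47533 rose by 1.31 ± 0.07 (adjusted p 1.5e-11). For Clu, Fabp5, Ifi204 and Gm47533 every Cd14-high library lay above every Cd14-low library. Clu, Fabp5 and C3 were higher still in other epithelial cells of every library. Clu had 548 to 1262 CPM in HR+ cells, and in basal cells Fabp5 had 4479 to 6566 CPM and C3 42.3 to 70.3 CPM. Cxcl1 had 119 to 146 CPM in basal cells, above the Cd14-high cells in 2 of 4 libraries. Cxcl5 had 21.3 to 136 CPM in basal cells, below the Cd14-high cells in wild-type HU only. Tlr2 had 4.80 to 8.45 CPM in basal cells, below the Cd14-high cells in Brca2mut/WT HU only. Tlr4 (6.19 to 8.28 CPM), Tnf (7.56 to 17.4 CPM) and Bcl3 (44.3 to 64.5 CPM) were higher in HR+ than in Cd14-high cells of every library. Wfdc3, Saa1 and Gm47533 were lower in both of those cell groups than in the Cd14-high cells of every library.

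LIF and related cytokines act through JAK kinases and STAT3. Of 15 measured JAK-STAT genes 6 rose and 1 fell, against 11.8% and 9.32% of all genes, with a median log2 fold change of 0.049, and DESeq2 called 3 higher and 0 lower. Stat3 itself had 175, 169.7, 175 and 168 CPM against 116, 124, 116 and 119 CPM, a separation with little spread in either class (log2 fold change 0.60 ± 0.04, adjusted p 1.3e-09). Osmr, the receptor chain for oncostatin M, had 59.96, 45.9, 51.4 and 48.1 CPM against 31.6, 27.7, 30.1 and 33.1 CPM. Stat5a, the mediator of prolactin signals, fell by 0.26 (SE 0.08, adjusted p 0.015) and lost its call without the wild-type control. Of 16 immediate early genes, which respond to dissociation as well as to cytokines, 10 rose and 1 fell, with a median of 0.26 (9 and 0 with DESeq2). Atf3 had 36.0, 31.3, 28.1 and 20.05 CPM against 19.0, 16.2, 15.4 and 15.4 CPM, and Fos had 1572, 1085, 1243 and 1138 CPM against 1149, 939, 1063 and 884 CPM. The part of dissociation in these differences was not tested.

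**Figure D3:**
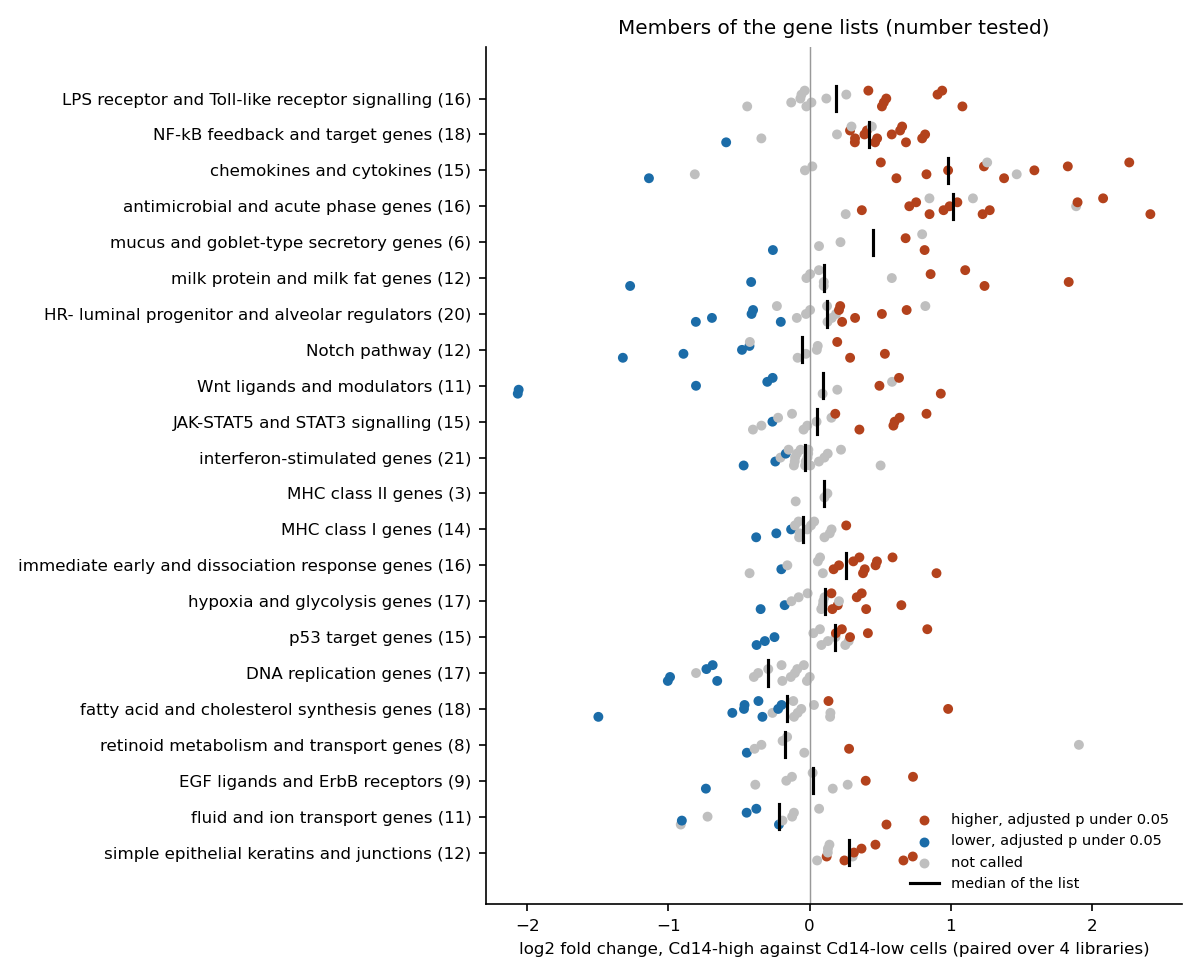
Log2 fold changes of the members of each gene list between Cd14-high and Cd14-low cells, paired over 4 libraries, with 1 point per measured gene, genes higher (red) or lower (blue) at an adjusted p under 0.05, genes not called (grey) and the median of the list (black bar). The medians of the chemokine list (0.98) and the antimicrobial list (1.02) lie farthest to the right, and the interferon list has a median of -0.032.

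Interferon-stimulated genes did not share the rise. Of 21 measured members 0 rose and 3 fell, against 11.8% and 9.32% of all genes, with a median log2 fold change of -0.032. Without adjustment edgeR placed 2 of them higher at p under 0.05, and DESeq2 called 0 higher and 3 lower. Ifi27l2a had 243, 245, 264 and 271 CPM against 395, 314, 402 and 370.0 CPM (log2 fold change -0.47 ± 0.05, adjusted p 2.4e-06). Among 14 MHC class I genes, which present peptides to killer T cells, Tap1 rose and H2-Q6, H2-Q7 and H2-K1 fell, all by at most 0.38, against 11.8% of all genes higher and 9.32% lower, and near-identical copies in this family may share reads. Of 3 measured MHC class II genes edgeR called 0 (1 at an unadjusted p under 0.05) and DESeq2 0. H2-Ab1, the most abundant of them, had 69.1, 60.8, 94.5 and 54.0 CPM against 71.2, 58.0, 78.9 and 56.7 CPM.

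Milk genes were called in both directions. Of 12 measured milk protein and milk fat genes 4 rose (Spp1, Csn2, Lpl and Xdh) and 2 fell (Csn1s2a and Folr1), against 11.8% and 9.32% of all genes, with a median of 0.10. DESeq2 called 3 higher and 1 lower, and the call on Csn2 was lost without the wild-type control or either Brca2mut/WT library. Csn3, kappa-casein, was the most abundant by UMIs and had 19320.2, 17358, 18440.2 and 18211 CPM against 20776, 16743, 17856 and 18082 CPM (log2 fold change 0.07 ± 0.03, adjusted p 0.094). The other caseins named here were near the detection limit, with Csn2 at no more than 1.49 CPM. Xdh, which is needed to secrete the milk fat globule, had 38.6, 34.6, 34.0 and 42.3 CPM against 22.4, 19.1, 22.2 and 22.2 CPM (log2 fold change 0.86 ± 0.07, adjusted p 8.9e-09). Lalba, which the rule capped in both classes, was at 25.9, 26.7, 14.6 and 26.8 CPM against 28.7, 27.4, 25.7 and 29.2 CPM.

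Regulators of the HR- luminal lineage were mixed, with 6 of 20 higher, 5 lower and a median of 0.13 (5 and 4 with DESeq2). Elf3, an epithelial ETS factor, had 20.9, 18.6, 19.0 and 17.6 CPM against 14.1, 10.2, 14.2 and 11.03 CPM (log2 fold change 0.69 ± 0.10, adjusted p 1.6e-05). Elf5, the ETS factor of alveolar fate, rose by only 0.23 ± 0.05 (adjusted p 0.0026), with 100.3, 127, 102 and 142 CPM against 93.4, 116, 99.6 and 107 CPM. Id2, which is needed for alveolar development, fell from 288, 376, 356 and 314 CPM to 179, 221, 172 and 219.9 CPM (log2 fold change -0.69 ± 0.07, adjusted p 0.00047). Kit, a receptor that marks luminal progenitors, had 80.3, 57.3, 74.9 and 59.2 CPM against 105, 78.3, 111 and 86.6 CPM, lower in each library. The Notch ligands Jag2 and Jag1 fell and the Notch feedback gene Nrarp rose, among 12 measured Notch genes of which 3 rose and 4 fell (1 and 2 with DESeq2), where 11.8% and 9.32% of all genes did. Without the cells with basal transcripts Jag2 and Jag1 lost their calls, at -0.29 and -0.073. Of 11 Wnt genes 3 rose, Lgr6 among them, and 5 fell (1 and 3 with DESeq2), against the same shares of all genes. Wnt10a and Dkk3 had the largest falls of that list, at under 1 CPM in the Cd14-high cells, and Wnt4, an HR+ cell ligand, fell by 0.80 but by 0.02 with the tag pool as the block (adjusted p 0.982).

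Keratins and junction genes of simple epithelia rose in 7 of 12 cases and fell in 0, against 11.8% and 9.32% of all genes, with a median of 0.28, while DESeq2 called 5 higher and 0 lower. Krt19 had 363, 484, 465 and 431 CPM against 238, 304, 265 and 289 CPM (log2 fold change 0.73 ± 0.04, adjusted p 7.1e-11). Krt18, its type I keratin relative, had 2224, 2377, 2591 and 2262 CPM against 1940.1, 1908, 2029.6 and 1782 CPM. Among 9 EGF family genes Hbegf, a shed EGF receptor ligand, rose to 153, 108, 116 and 94.998 CPM from 81.1, 80.2, 75.0 and 60.5 CPM, and Nrg1, a ligand of ERBB3, fell to 23.1, 26.7, 23.3 and 28.1 CPM from 42.4, 39.1, 43.9 and 51.6 CPM. Erbb3 rose by 0.40 ± 0.07. Muc1 and Muc15, which encode membrane mucins, rose among 6 measured mucus genes and Galnt7 fell, while DESeq2 called 1 higher and 1 lower. Without cells with DNA replication transcripts Muc1 lost its call in edgeR's test (log2 fold change 0.80, adjusted p 0.0576). Tff2, Tff3 and Gcnt3 had no UMI. Hypoxia genes rose in 7 of 17 cases, Ndrg1 and Ero1l foremost, and fell in 2 (4 and 2 with DESeq2).

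Of 18 lipid and sterol synthesis genes 8 were lower and 2 higher, with a median of -0.16, where 9.32% of all genes tested were lower. DESeq2 called 6 lower and 1 higher. Thrsp, a regulator of fatty acid synthesis, had 18.6, 49.1, 25.0 and 41.3 CPM against 68.4, 119, 95.03 and 95.5 CPM (log2 fold change -1.50 ± 0.14, adjusted p 0.0022). It was lower in 10 of 10 tag pools. The sterol genes Idi1 and Sqle fell by 0.55 and 0.46, whereas Scd1, the desaturase that makes monounsaturated fatty acids, rose from 332, 306, 289.5 and 314 CPM to 590.3, 635, 539 and 578 CPM (log2 fold change 0.98 ± 0.04, adjusted p 1.1e-13). Its classes lay far apart in every library, with no overlap. Of 8 retinoid genes Rarg was higher and Rdh10 lower, a share near that of all genes (11.8% and 9.32%), and both calls were lost when 1 of several libraries was left out. Of 11 fluid and ion transport genes 1 rose and 4 fell (0 and 3 with DESeq2), against 11.8% and 9.32% of all genes, so that the share that rose was near the background. Among those that fell was the chloride carrier Slc12a2, with 163, 172, 141 and 175 CPM against 212, 229, 235 and 204 CPM.

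Among called genes with at least 20 CPM in the higher class, the largest fall was that of Apoe (ENSMUSG00000002985, chromosome 7 of GRCm38, 19696109 to 19699188), a lipid-carrying apolipoprotein, with 6.05, 8.29, 27.2 and 8.02 CPM against 40.6, 73.1, 83.8 and 174 CPM. Its log2 fold change was -2.68 ± 0.47 with an adjusted p of 0.044, which was lost without the wild-type control or either HU library. Fst, the activin inhibitor follistatin, had 15.3, 8.45, 7.18 and 10.2 CPM against 35.0, 38.4, 35.1 and 50.5 CPM (log2 fold change -1.75 ± 0.23, adjusted p 0.01). The transcript 4930469K13Rik had 11.6, 31.2, 31.6 and 17.6 CPM against 50.9, 99.8, 117 and 90.5 CPM (log2 fold change -1.89 ± 0.08, adjusted p 2.5e-10). For all 3 the lowest Cd14-low library lay above the highest Cd14-high library. Apoe and Fst are abundant in basal cells, with 142, 469, 431 and 972 CPM of Apoe and 283, 416, 313 and 308 CPM of Fst, and they fell together with the basal markers. With the cells that carried basal transcripts left out, Apoe was lower by 1.73 (adjusted p 5.9e-08), while Fst was lower by 0.63 and no longer called (adjusted p 0.309). S100a14, a calcium-binding protein, fell by 1.49 ± 0.15 by library (adjusted p 9.1e-05) but by 0.68 with the tag pool as the block (adjusted p 0.173), and was lower in 7 of 10 pools. It had 459 to 636 CPM in basal and 858 to 1237 CPM in HR+ cells, and was lower by 1.66 without the cells with basal transcripts. Trpm3, a cation channel gene, had 34.9, 38.9, 29.9 and 45.3 CPM against 87.1, 82.8, 84.1 and 86.1 CPM (log2 fold change -1.15 ± 0.07, adjusted p 1.6e-09). Kctd14, Afap1l1 and Zfp385b were lower by 1.19, 1.02 and 1.05 with SEs under 0.1, the mitochondrial folate enzyme gene Mthfd2 by 1.17 and the basement membrane collagen gene Col4a1 by 0.98. Col4a1 lost its call without the cells with basal transcripts (log2 fold change -0.053, adjusted p 0.71).

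DNA replication genes fell in 5 of 17 cases (Uhrf1, Mcm3, Mcm5, Mcm6 and Mcm2) and rose in 0, with a median of -0.29. At an unadjusted p under 0.05 it was 7 lower and 0 higher, and DESeq2 called 2 lower and 0 higher. Their sum was 112, 133, 119 and 137 CPM in Cd14-high cells and 155, 146, 151 and 163 CPM in Cd14-low cells. Leaving out of both classes the cells with at least 200 CPM of these genes gave 1291 genes higher and 1054 lower. It also ended the calls on Uhrf1, Mcm3, Mcm5 and Mcm6. Since the filter acts on these same genes, it can remove their difference by itself. Of 15 measured p53 target genes 5 rose and 3 fell, with a median of 0.18 (2 and 2 with DESeq2). Fas, a death receptor, had 24.9, 27.03, 23.1 and 20.7 CPM against 14.2, 13.8, 13.3 and 16.2 CPM (log2 fold change 0.83 ± 0.09, adjusted p 7.5e-07), and Perp, a junction protein, fell by 0.38 ± 0.05.

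The levels were next followed over the whole range of Cd14, in bins of under 50, 50 to 150, 150 to 300, 300 to 450, 450 to 700 and at least 700 CPM, with the other limits kept. Averaged over the libraries, most of the leading genes changed in steps and had moved before the threshold was reached. Within single libraries the steps were seldom all in the same direction, and even Lbp rose at every step in only 2 of 4 libraries. Lbp averaged 110.3 CPM over the 4 libraries in the lowest bin, then 144, 175, 192 and 216 CPM, and 283 CPM in the highest. Wfdc3 averaged 26.9, 48.5, 75.5, 97.1, 102 and 112 CPM, but in the highest bin the libraries ranged from 41.6 to 182 CPM. Fcgbp averaged 399.6 CPM in the lowest bin and 549 to 557 CPM in each bin from 150 CPM upward, so it did not keep rising among the Cd14-high cells. Thrsp averaged 94.5, 72.7, 49.8, 42.7, 34.0 and 16.4 CPM, although it fell at every step in only 1 of the 4 libraries. Trpm3 went from 85.0 to 28.8 CPM. Cells just outside the threshold (250 to 300 CPM of Cd14, 94, 71, 62 and 37 cells) had 98.6, 59.2, 87.4 and 94.7 CPM of Wfdc3, and those just inside (300 to 350 CPM, 72, 44, 44 and 26 cells) had 118, 37.2, 80.5 and 91.8 CPM. No step in Wfdc3 was seen at the threshold. Since a median Cd14-high cell had only 12 or 13 Cd14 UMIs, counting error moves cells between neighbouring bins.

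**Figure D4:**
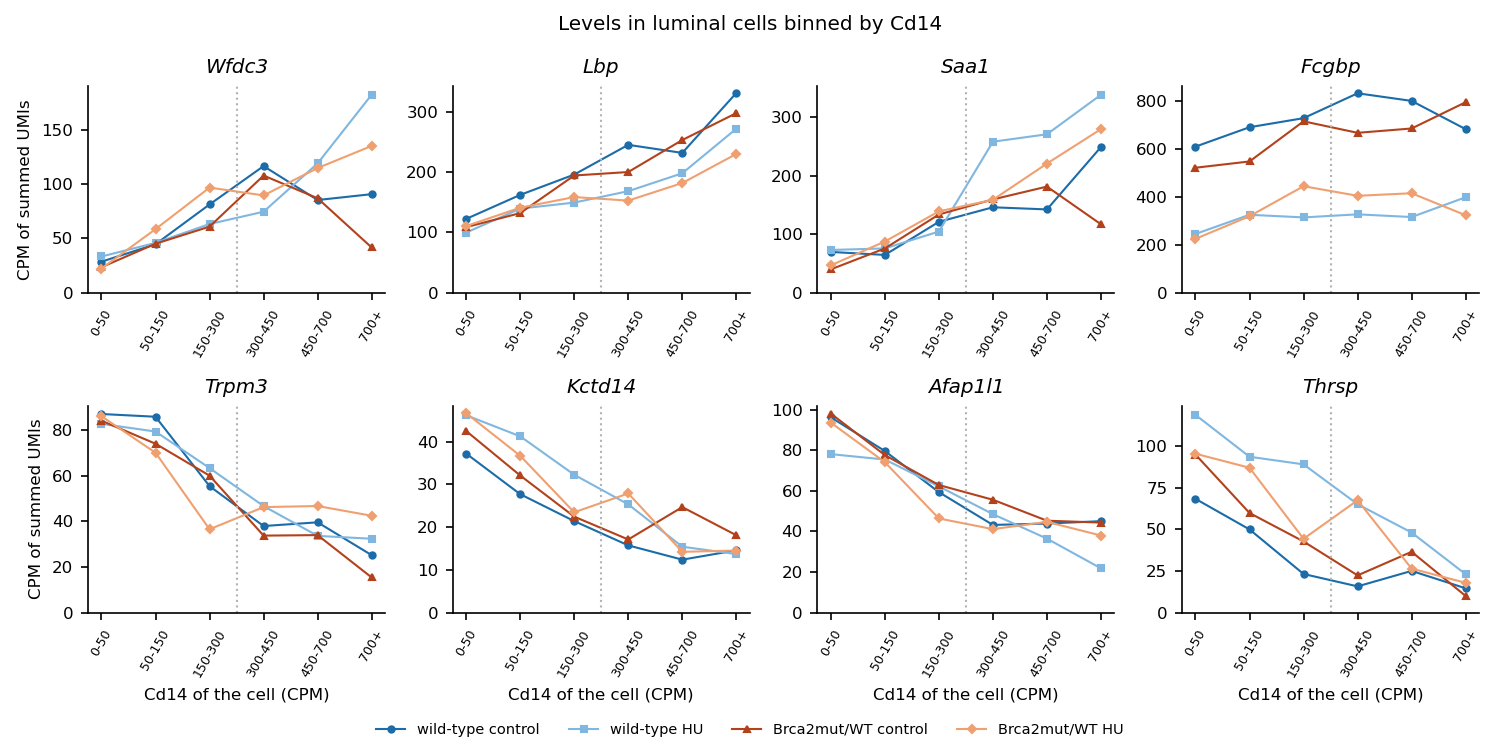
Levels in CPM of 8 genes in luminal cells binned by their own Cd14 level in CPM (horizontal axis, bins of unequal width), 1 line per library, with the dotted line at the threshold of 300 CPM. Lbp climbs from 110.3 to 283 CPM on average and Thrsp declines from 94.5 to 16.4 CPM, in each library with part of the change below the threshold, Saa1 of the Brca2mut/WT control drops in the highest bin, and the Fcgbp lines of the HU libraries stay below those of the controls in every bin.

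The 4 antibody tags split each library further, and 10 pools held at least 20 cells of both classes. Wfdc3, Lbp, Ltf, Saa1, Spp1, Cxcl1 and Tnf were higher in Cd14-high than in Cd14-low cells in 10 of 10 pools. The pools of tags 2 and 4 of wild-type HU stood apart from the other 8 in level. Spp1 was at 12608 and 18393 CPM in their Cd14-high cells, against 1338 to 3176 CPM in the other pools, and Cxcl1 at 244 and 558 CPM against 13.2 to 105 CPM. Fcgbp was at 11.5 and 13.5 CPM in the same pools, against 333 to 958 CPM elsewhere, and Lbp at 114 and 80.8 CPM against 183 to 277 CPM. These pools were also high or low in their Cd14-low cells, with 2482 and 4021 CPM of Spp1 and 14.01 and 14.5 CPM of Fcgbp. The wild-type HU values given above for these genes are therefore mixtures of unlike pools. With the tag pool as the block, 1319 genes were higher and 1081 lower, of which 1210 and 895 were also called by library.

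**Figure D5:**
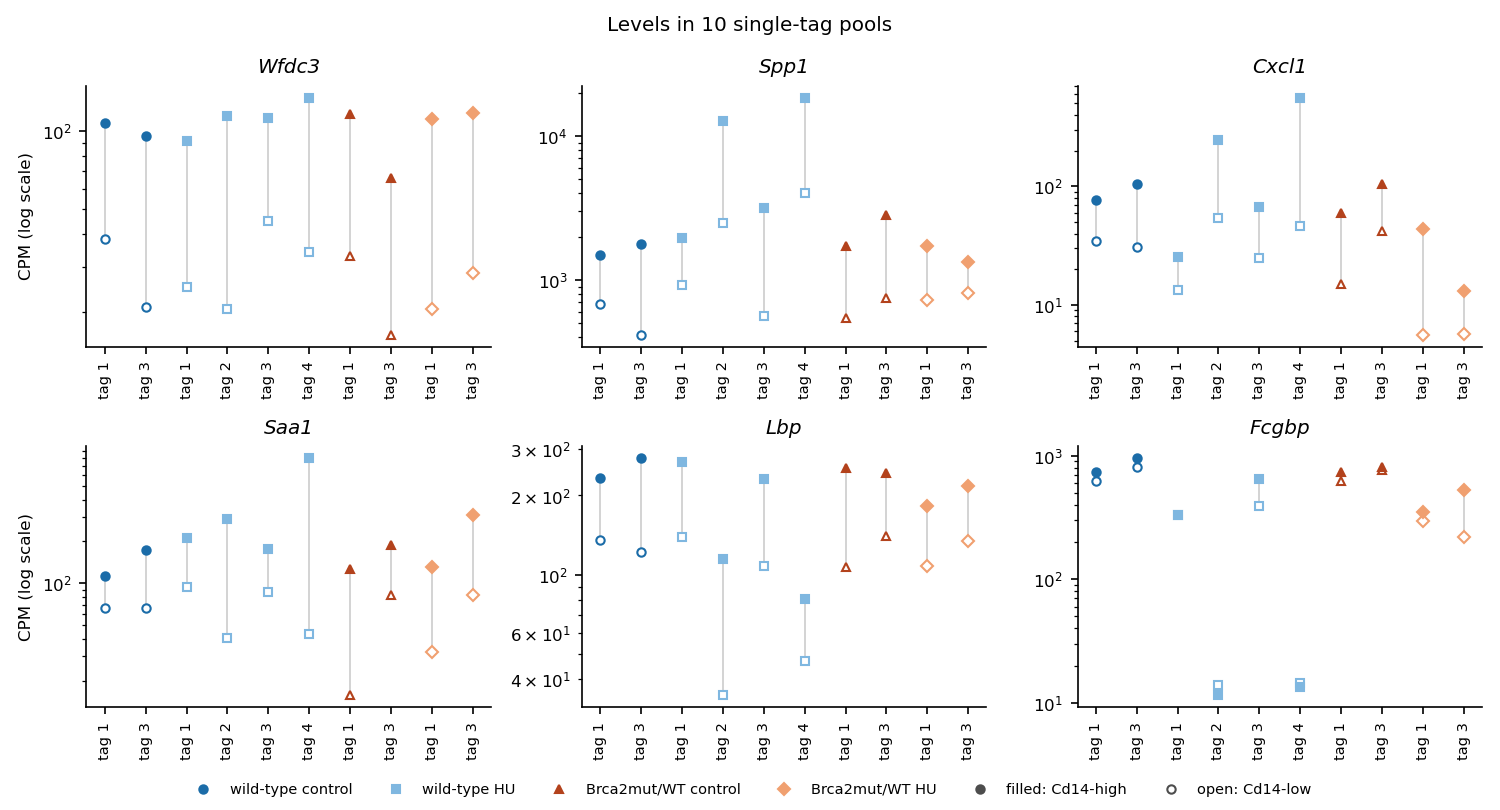
Levels in CPM (log axis) of 6 genes in Cd14-high (filled) and Cd14-low cells (open) of the 10 single-tag pools that held at least 20 cells of each class, coloured by library. The filled symbol is above the open one in all pools for Wfdc3, Spp1, Cxcl1, Saa1 and Lbp, while Fcgbp is near 11.5 to 14.5 CPM in both classes of wild-type HU tags 2 and 4.

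A second comparison class was the 217 Cd14-high luminal cells with at least 200 CPM of Lalba (88, 54, 43 and 32 cells). Against these, the same test over 9900 genes called 392 genes higher (3.96%) and 502 lower (5.07%) in the Cd14-high Lalba-low cells. Higher calls were 43.8% of all with TMM scaling and 74.1% with total counts, so the balance of directions depended on the scale, with 774 higher and 271 lower on the second. Without the wild-type control 224 genes were higher and 251 lower, and without wild-type HU 247 and 333. Wfdc2, a secreted protein with a whey acidic protein domain, had 754, 796, 365 and 394 CPM in Lalba-low and 142, 165, 75.9 and 84.5 CPM in Lalba-high cells (log2 fold change 2.22 ± 0.07, adjusted p 6.9e-20). Hp, at 2.51, 2.22, 1.71 and 1.13 CPM in Lalba-high cells, differed by 4.73 ± 0.23 (adjusted p 7.6e-15). Of the label genes Wfdc3, at 36.4, 72.4, 35.8 and 34.9 CPM in Lalba-high cells, was higher in the Lalba-low cells (log2 fold change 1.11 ± 0.12). Fcgbp was lower (-0.37 ± 0.06, adjusted p 9.7e-05), with 813, 459, 911 and 468 CPM in Lalba-high cells, and Sfrp2 was not called. Fst, Rflna, Cxcl12 and Tfcp2l1 were also higher, by 2.77, 1.64, 1.78 and 1.52, and Ly6d by 2.76 ± 0.38 (adjusted p 0.046).

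Lower in Lalba-low than in Lalba-high cells were the sialyltransferase genes St6galnac4 and St3gal5, by 1.17 and 0.91, together with Trpm3, Psat1, Npnt and 2810001G20Rik, by 0.90 to 1.02. Csn3 was lower too, with 19320.2, 17358, 18440.2 and 18211 CPM against 25965, 24705, 23745 and 27139 CPM (log2 fold change -0.55 ± 0.04, adjusted p 2.2e-11), and so was Folr1, a folate receptor gene, with a log2 fold change of -0.90. With TMM scaling, of 16 antimicrobial genes 4 were higher and 1, Lcn2, was lower (-0.26 ± 0.03, adjusted p 3.4e-06). Of 10 chemokines and cytokines 4 were higher and 0 lower, and of 14 p53 target genes 5 were higher and 0 lower. The background for every list in this paragraph is the share of all genes tested between these classes, 3.96% higher and 5.07% lower. Of 21 interferon genes 6 were lower and 0 higher, and of 18 lipid and sterol synthesis genes 8 were lower and 0 higher. With total counts fewer genes were lower in all (271), and the list counts of this comparison are given with TMM scaling only. At an unadjusted p under 0.05 none of the chemokine and p53 genes was lower and none of the interferon and lipid genes higher. Of the LPS and Toll-like receptor genes edgeR called 0 of 15 between these classes, and 0 at an unadjusted p under 0.05. With 217 cells on the other side this does not show equal levels. Lbp, for one, differed by -0.08 ± 0.09 on the log2 scale.

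With HU, few genes moved the same way in both genotypes within the Cd14-high cells. Each condition had 1 library, no test was run, and genes were named by size, at least 1.5-fold on the log2(CPM + 1) scale in both pairs with at least 20 CPM in the higher library of each pair. Of 5272 genes 19 were higher with HU (0.36%) and 18 lower (0.341%). With the largest tag pool of each library left out 56 were higher and 42 lower, of which 18 and 10 were among those of the full sums, and with a pseudocount of 5 CPM 10 were lower. Cdkn1a, the cell cycle inhibitor p21 and a p53 target, had 171 and 180.3 CPM in the controls and 375 and 378 CPM in the HU libraries. In Cd14-low cells it had 179.6 and 182 CPM in the controls and 289 and 259 CPM with HU. Ucp2, a mitochondrial carrier, had 193 and 197 CPM in the controls and 468 and 372 CPM with HU, and Mgmt, a DNA repair protein, 35.3 and 37.3 CPM against 82.8 and 68.5 CPM. Both were also higher with HU in Cd14-low cells. Ucp2 had 293 and 353 CPM there in the controls and 548 and 397 CPM with HU, and Mgmt 34.4 and 38.9 CPM against 57.4 and 46.8 CPM. Cyp1b1 and Gsta3, which metabolise foreign compounds, were the other 2 of the 5 largest. In the pools, Cdkn1a ranged from 152 to 205 CPM in 4 control pools and from 219 to 609 CPM in 6 HU pools, with no overlap, and Mgmt from 32.8 to 39.2 and from 42.3 to 144 CPM. The wild-type HU values rest in part on the pools of tags 2 and 4, which were the highest of all pools for both genes. Ucp2 had 865 and 1019.8 CPM there and 253 and 231 CPM in tags 1 and 3, against 157 and 189.6 CPM in the wild-type control pools. Mgmt had 144 and 117 CPM in tags 2 and 4 and 67.6 and 53.2 CPM in tags 1 and 3, and Cdkn1a 569 and 609 CPM against 240.1 and 286 CPM. In Brca2mut/WT HU the pools of tags 1 and 3 had 291 and 211 CPM of Ucp2, against 186 and 169 CPM in the Brca2mut/WT control pools. The library value of 372 CPM lay above both, so it rests in part on Cd14-high cells outside these pools, which held 49 and 59 of the 134. Gsta3 likewise had 37.9 CPM in that library and 19.8 and 21.1 CPM in the pools. Control and HU pools overlapped for Cyp1b1 and Gsta3.

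Lower with HU were Gm13889, Cd27, Letm2, Fcgbp and Gja1. Cd27, a receptor of the TNF receptor family, had 32.1 and 25.4 CPM in the controls and 12.3 and 11.7 CPM with HU, and a lower level was also seen in Cd14-low cells (17.3 and 12.8 against 7.47 and 6.43 CPM). Gm13889 had 34.1 and 34.5 CPM in the controls against 13.98 and 5.86 CPM. In Cd14-low cells it was between 2.84 and 5.85 CPM in every library. Fcgbp had 778 and 700.4 CPM in the controls against 340.3 and 385 CPM with HU. In both cell classes the HU libraries were the lower ones, and in Cd14-high cells the level ranged from 737 to 958 CPM in the control pools and from 11.5 to 648 CPM in the HU pools. Letm2 did not overlap between control pools (27.3 to 43.2 CPM) and HU pools (5.03 to 23.8 CPM), whereas Cd27 did (13.7 to 40.3 and 2.69 to 19.8 CPM), as did Gja1 (13.1 to 33.9 and 11.2 to 26.2 CPM). Letm2 was also lower with HU in Cd14-low cells, with 37.6 and 36.1 CPM in the controls against 11.1 and 15.3 CPM. The connexin gene Gja1 had 28.9 and 30.3 CPM against 15.2 and 16.7 CPM. Pools of the same library are not replicates of a treatment, and how many of all genes part control from HU pools was not counted. Because tag pools differ between libraries in ways the sources do not explain, HU and the make-up of the pools cannot be told apart here.

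Between genotypes 0 of 5194 genes (0%) were at least 1.5-fold higher and 8 (0.154%) at least 1.5-fold lower in Brca2mut/WT in both treatments. Wfdc2 had 754 and 796 CPM in the wild-type libraries and 365 and 394 CPM in the Brca2mut/WT libraries, while in Cd14-low cells it had 247 and 329 against 238 and 228 CPM. Ceacam10, a cell adhesion molecule, had 38.9 and 28.6 CPM against 13.97 and 13.3 CPM, and Cxcl5 had 22.5 and 22.9 CPM against 11.4 and 8.33 CPM. The basal keratin gene Krt5 had 34.0 and 21.0 CPM against 15.5 and 10.8 CPM. Snhg9, a noncoding host gene of small nucleolar RNA, had 27.4 and 32.3 CPM against 15.5 and 15.7 CPM, and a like difference in Cd14-low cells (27.4 and 33.5 against 15.7 and 19.8 CPM). The pools of Snhg9 did not overlap either, with 25.5 to 35.9 CPM in 6 wild-type pools and 11.9 to 18.0 CPM in 4 Brca2mut/WT pools. Pools of the same library are not replicates of a genotype, and Snhg9 was named for its difference between the libraries. How many of all genes part the pools in this way was not counted, and the difference between genotypes was not tested. The ranges of the pools overlapped for Wfdc2, Ceacam10, Cxcl5 and Krt5.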

How the data were processed

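Single-cell libraries (10x Chromium version 3) were aligned and counted by the authors with Cell Ranger. The submitters' processing notes name version 6.0.2 and the file headers 6.1.1, on mm10. The deposited values are counts, whole numbers of UMIs per gene and cell without normalization, for genes and 4 antibody tags. The libraries held 302135155, 258821284, 243430259 and 258118001 gene UMIs in 9358, 8158, 8113 and 7639 cells, and 17360 cells passed the limits on genes and mitochondrial UMIs. No doublet caller was run. A cell had a single tag where 1 tag held at least 80% of at least 20 tag UMIs. Counts were summed per class and library and tested with edgeR 4.0.16 in R 4.3.3 (filterByExpr, TMM, library as block). Each library supplies both classes of its own cells, which is where the pairing comes from. The same scripts were tested on simulated counts, in which libraries differed in depth only. That test therefore does not cover libraries or tag pools as unlike as the real ones. Intervals are exact Poisson or Clopper-Pearson 95% intervals and cover counting error only. The 4 libraries differ in condition, so p-values set a class difference against its spread over them. Levels per gene come from transcript-end counts. Where a gene is called the most abundant of a list, this rests on UMIs, and no test compared levels between genes.

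The members and the gene lists were chosen with earlier results of these data known. Named were the label genes, the 12 largest rises and 12 largest falls among calls with at least 20 CPM in the higher class and the same sign in 4 libraries, up to 4 called members per list (22 lists), the 6 largest rises and falls against Lalba-high cells and the 5 largest each way for HU and genotype. Members named besides these were chosen after their values were seen. Alternatives covered scaling, filter, test, block, thresholds, depth, tags and left-out libraries. Tables were made with Python 3.11.15 and gene positions are those of GENCODE M21 (GRCm38).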

Additional observations from a re-analysis of the deposited data

How the results depend on the processing

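Against Cd14-low cells, 115 named genes were refitted under up to 19 alternatives, of which 1887 gene values kept their direction and side of the threshold, 241 lost the call and 5 gained one. DESeq2's test called 742 genes higher and 559 lower, cells thinned to 5000 UMIs gave 537 and 446, and the fit without the library as a block gave 698 and 521. Of the calls made without that pairing, 696 and 515 were also made with it. Total counts as the scale gave 1944 lower genes, with the median gene shifted by -0.064. Leaving out 1 library gave 999 to 1241 higher and 837 to 1099 lower genes, the fewest without the wild-type control. Against Lalba-high cells the same step gave 224 to 399 higher and 251 to 480 lower genes, and total counts 774 and 271. With Cd14 of at least 500 CPM the shares were 7.44%, 4.76%, 4.65% and 3.27%. With the largest tag pool of each library left out, 56 genes were higher and 42 lower with HU, of which 18 and 10 were shared with the full sums, and 2 were higher in Brca2mut/WT. A pseudocount of 5 CPM gave 10 genes lower with HU. The causes of these shifts were not tested.

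Direction reversed 13 times in 7 genes: H2-Ab1 to -0.059 (Cd14 of at least 500 CPM) and -0.023 (thinned), H2-DMb1 to 0.0088 (500 CPM), Ankrd37 to -0.13 (thinned), Itga2 to 0.55 and Trp63 to 0.089 (basal-gene cells left out), Cd68 to 0.073 (500 CPM) and 0.35 (over 6000 genes allowed), and Pecam1 to -0.11 (single-tag cells). With 1 library left out Cd68 lay between -0.23 and 0.0043 and Pecam1 between -0.18 and 0.13. The alternatives that leave out basal-gene or replicating cells were chosen after seeing the data. Low genes such as Tnf and Ccl28 fell under the filter in the thinned and pool fits, so depth limits what can be said of them.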
